A study of Pyrus pyrifolia with 6 samples.

Results

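The loci described here are the 772 gene loci that the authors' transcript assembly added to the annotation of the pear reference genome, i.e., every locus with an identifier of the form Novel00001, among 42966 loci in the deposited table. The other 42194 are annotated genes of the reference. The libraries came from the fruit skin of ‘Suisho’, a sand pear (Pyrus pyrifolia) line with green skin, and of ‘Niitaka’, the russet cultivar from which ‘Suisho’ arose as a bud mutant. Each line had 3 libraries (B1, B2 and B3 for green skin, A1, A2 and A3 for russet skin), taken from 80-d fruits (80 DAA in the labels) of healthy plants under open growth, and the skin of 10 fruits was combined for each sample. Because the green line is a single mutant clone set against its parent, what belongs to the skin type and what belongs to that 1 clone cannot be told apart. The p-values measure only the spread between these samples.

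Reference-guided assembly joins aligned reads into transcript models, and a model that lies outside every annotated gene is listed as a locus of its own. Such loci can be protein-coding genes that the annotation missed, long non-coding RNAs, transcribed transposons and pseudogenes, or unjoined parts of a neighboring gene. Russet skin is a cork-like layer whose outer cells are suberized and dead, whereas green skin keeps a living epidermis under a waxy cuticle. The reads were aligned to the genome of Chinese white pear, another species, so that sequences which differ between the species or are missing from the reference can lose reads in all 6 libraries.

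Expression was deposited as FPKM, i.e., the fragments on a locus relative to its exon length and to the mapped fragments of the library, and the read numbers behind the values were recovered from FPKM and length. The libraries rested on 31381552 to 42729578 reads, and 0.508 to 0.575% of the reads of a library fell on assembled loci. A single read on 1000 bp was worth 0.0234 to 0.0319 FPKM. Across assembled loci, libraries of the same line had squared correlations of 0.914 to 0.944 on log10(FPKM + 1), against 0.704 to 0.761 between lines. As 2 short marker lists were taken from earlier results of these data, their values describe the libraries and are no independent check of the labels. The summed FPKM of 5 feruloyl transferase-like genes of suberin was 7.89 to 8.37 in green and 81.6 to 148 in russet libraries, and that of 6 cuticle genes (5 CER1-like genes for wax alkanes and CYP86A22) was 104 to 143 in green and 1.01 to 2.11 in russet libraries.

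The assembled loci were shorter than the annotated genes. Their median length, i.e., the summed exons, was 1016 bp, against 1412 bp for annotated genes, and the 10th and 90th percentiles were 487 and 2361 bp. Lengths under 500 bp were found in 81 assembled loci (10.5%), against 8.01% of annotated genes, and lengths of 3000 bp or more in 46 (5.96%), against 9.05%. The shortest was Novel00208 with 226 bp and the longest Novel00648 with 8855 bp. Most had introns. Only 70 loci (9.07%) were as long as the stretch of scaffold they span, against 14.2% of annotated genes, and the spliced ones had a median of 371.5 bp of intron, against 1430 bp. They were spread over 453 of 1688 scaffolds with at most 10 on any of them, with 392 on the plus and 380 on the minus strand.

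**Figure D1:**
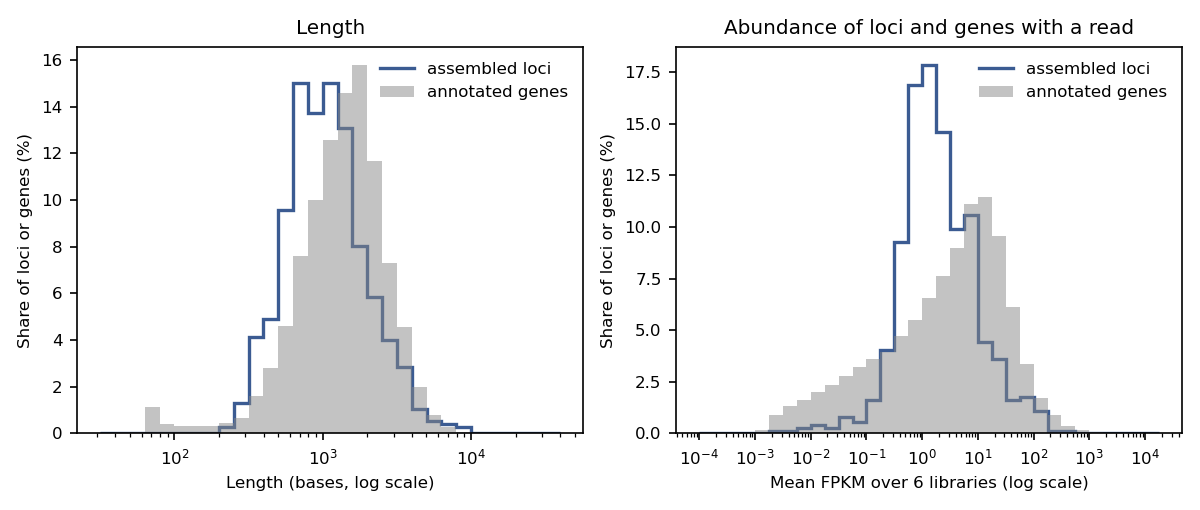
Distribution of length in bases (left) and of mean FPKM over 6 libraries for those with a read (right), both on log axes, as a share of the assembled loci (blue line) and of the annotated genes (grey area). The assembled loci center on a median of 1016 bp and 1.65 FPKM, the annotated genes on 1412 bp and 4.1 FPKM, and few assembled loci lie below 0.1 FPKM.

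Most assembled loci had reads, at a lower level than annotated genes. A read was found in at least 1 library for 746 of them (96.6%), against 81.4% of annotated genes, and 647 had a read in all 6 libraries. The loci were assembled from reads of these libraries, so that having a read was largely fixed by how they were found. Among those with a read, the median of the mean FPKM was 1.65, against 4.1 for annotated genes. The low end was thinner as well, with a 10th percentile of 0.4 FPKM for assembled loci, against 0.0453 FPKM for annotated genes. A mean of 10 FPKM or more was reached by 95 assembled loci (12.3%), against 27.4%, and of 100 FPKM or more by 10 (1.3%), against 2.62%. The 10 loci with the most reads held 29.1% of all reads on assembled loci and the first 50 held 60.3%.

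The 5 most abundant loci were Novel00143, Novel00062, Novel00429, Novel00341 and Novel00241. Novel00143 (scaffold NW_008988087.1, 564795 to 565468, plus strand, 650 bp) had 313, 464 and 376 FPKM in green libraries B1, B2 and B3, against 509, 527 and 574 FPKM in russet libraries A1, A2 and A3. All green values lay below all russet values, but the difference did not pass the test (log2 change green minus russet −0.50 ± 0.20, SE, adjusted p = 0.16). Novel00062 (scaffold NW_008988052.1, 1614542 to 1615888, minus strand, 1210 bp) averaged 362 ± 71.0 FPKM in green and 241 ± 35.9 FPKM in russet skin (SD, n = 3 each), with adjusted p = 0.109 by limma. Novel00429 and Novel00341 averaged 147 and 156 FPKM in green and 127 and 136 FPKM in russet skin, with adjusted p of 0.288 and 0.464. Novel00241 (scaffold NW_008988143.1, 319572 to 321030, minus strand, 486 bp) was the only one of these 5 to pass the test. It had 159, 245 and 173 FPKM in green libraries, against 91.8, 94.6 and 135 FPKM in russet libraries, and its adjusted p of 0.0463 rose to 0.134 without A2, 0.14 without A1, 0.0619 without B1, 0.119 without B2 and 0.0858 without B3. With all libraries its adjusted p lay between 0.0387 and 0.0754 over the alternatives. None of these 5 loci has a name or a term in the sources used here, and the annotated genes nearest to Novel00143, Novel00429 and Novel00241 had no read in any library.

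All assembled loci without reads overlapped another assembled locus. Overlaps of this kind involved 79 loci, 75 of them only with loci on the other strand, and these 79 held all 26 loci with no read and all 45 with a mean under 0.1 FPKM (the 26 and 19 others). The 693 loci that overlapped no other assembled locus all passed 0.1 FPKM. The median number of reads was 13 for the overlapping loci and 419 for the others. The pair Novel00178 and Novel00179 shows the pattern, with the same ends on scaffold NW_008988103.1 (472854 to 474204), opposite strands and 0 reads in all 6 libraries. Among loci covered over at least 90% of their span by loci on the other strand, 26 of 47 assembled loci (55.3%) had no read, against 149 of 738 annotated genes (20.2%) in the same position. The library kit is not stated to mark strand and no source used here names the counting program, so that reads of such pairs cannot be told apart, and the part of counting in their low values was not tested.

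Most assembled loci lay within 5000 bp of an annotated gene. The median distance to the nearest annotated gene was 1981 bp, against 1247 bp between annotated genes. A gap of up to 200 bp was found for 42 assembled loci (5.44%), against 20.3% of annotated genes, a gap of up to 1000 bp for 225 (29.1%), against 44.3%, and a gap of up to 5000 bp for 591 (76.6%), against 80.4%. Of the annotated genes, 4534 overlap another and count as a gap of 0, whereas assembled loci were listed outside annotated genes. Without those genes the median distance between annotated genes was 1559 bp, and the shares were 10.8, 37.7 and 78.4% at 200, 1000 and 5000 bp. On the same strand, 123 assembled loci had an annotated gene within 1000 bp. Strands here are as deposited and were not checked, and the library kit is not stated to mark strand. Gaps over 10000 bp separated 79 loci from any annotated gene, up to 78373 bp. The orientation was near even, with 200 loci before the 5′ end and 198 beyond the 3′ end of a gene on the same strand, 205 with 3′ ends facing and 165 with 5′ ends facing on the other strand.

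A single locus overlapped an annotated gene. Novel00433 spans 35907 bp on scaffold NW_008988354.1 (359613 to 395519, minus strand) with only 1122 bp of exon, and gene 103966502 on the same strand within it had no read in any library. Novel00667, Novel00683 and Novel00770 lay on scaffolds with no annotated gene. The most abundant of these was Novel00683 (scaffold NW_008988948.1, 153931 to 158023, plus strand), with 46.3, 46.9 and 38.9 FPKM in green libraries, against 43.7, 52.7 and 42.4 FPKM in russet libraries. Its lines overlapped, with adjusted p = 0.797 by limma. These 4 loci were singled out after their values were seen.

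The comparison between lines asks which assembled loci differ between green and russet skin, and it was made with limma on log2(FPKM + 0.1) over all 30161 genes and loci with a mean of at least 0.1 FPKM. Of the 727 assembled loci tested, 171 (23.5%) passed an adjusted p of 0.05, against 15.3% of all genes and loci tested and 15.1% of annotated genes. In green skin 90 of them were higher (12.4%, against 7.29% of all tested) and 81 lower (11.1%, against 8.05%). Because assembled loci are of lower abundance, annotated genes were also weighted to the same mix of mean FPKM, which gave 17.5%. Weighted by recovered reads the annotated share was 18.1%, and by FPKM and length together it was 18.5%. The difference of at least 2-fold that 149 assembled loci showed beside the adjusted p (20.5%, against 11.3% of all tested) stood against 14.9% of annotated genes of like abundance. These shares are descriptions, since loci and genes are not replicates. On simulated data this test made more false calls than the threshold aims for and limma voom did not. The simulation gave all genes the same spread beyond counting error and changed few of them, unlike these libraries. It therefore does not give the error rate of either test in these data. The smaller shares under limma voom are given below.

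The share called was higher among assembled loci than among annotated genes in each of the 6 classes of mean FPKM. It was 15.0% against 11.6% from 0.1 to 0.3 FPKM, 26.9% against 20.1% from 1 to 3 FPKM, and 21.1% against 10.3% at 30 FPKM and above, where only 38 assembled loci were tested. In classes of total reads it was not higher everywhere, as 0 of 7 loci with 10 to 30 reads were called. In none of these classes of FPKM was the spread between libraries of a line lower in assembled loci. The median within-line SD on the log2 scale was 0.369 in both sets from 1 to 3 FPKM, and 0.254 for assembled loci against 0.174 for annotated genes from 10 to 30 FPKM. The 3 green libraries were all above or all below the 3 russet ones in 307 assembled loci (42.2%), against 33.1% of all genes and loci tested and 35.1% of annotated genes of like abundance. With limma voom on recovered reads the share was smaller, with 143 assembled loci (19.7%), against 16.3% of annotated genes of like FPKM and 14.6% of all tested.

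**Figure D2:**
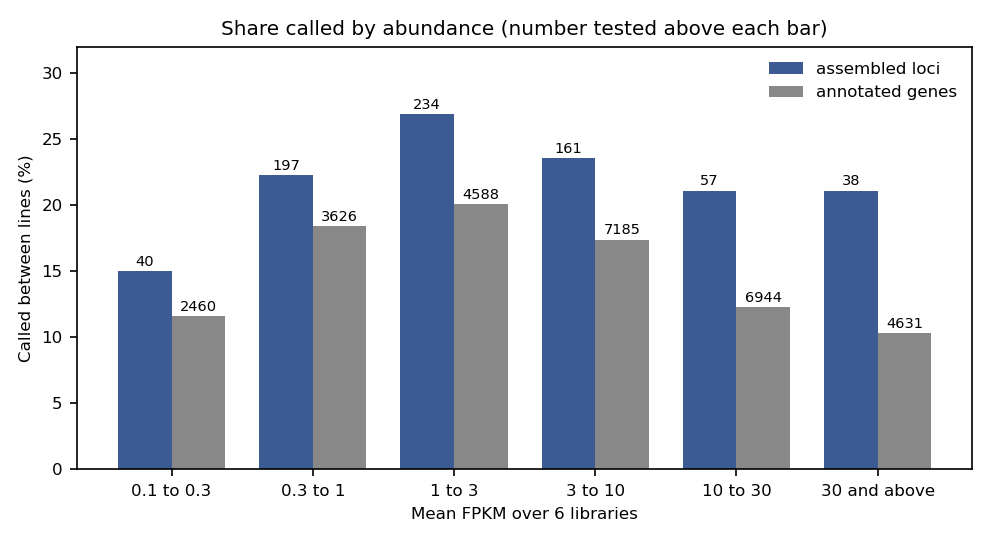
Share of assembled loci (blue) and annotated genes (grey) called between green and russet skin at an adjusted p of 0.05, in 6 classes of mean FPKM. The number tested stands above each bar, and the blue bar is the higher one in every class, with 26.9% against 20.1% from 1 to 3 FPKM.

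The changes were also larger. The median size of the log2 change among called loci was 2.23, against 1.6 among called annotated genes, and 2.26 and 1.6 with loci and genes that have no read in 1 line set at their lower bound. Over the 146 called assembled loci with reads in both lines it was 1.84, against 1.51 for annotated genes. At least a 4-fold difference was found in 93 called assembled loci (54.4%), against 38.4% of called annotated genes. These values were not weighted for abundance, although changes tended to be larger at low FPKM. Over all loci and genes tested, the median size was larger for assembled loci in each class of FPKM. It was 0.902 against 0.607 from 0.1 to 0.3 FPKM and 0.317 against 0.183 from 10 to 30 FPKM. By length, 29 of 77 assembled loci under 500 bp were called (37.7%), against 19.4% of annotated genes of that length. The shares were 22.3% against 17.3% from 500 to under 1000 bp, 20.5% against 16% from 1000 to under 2000 bp, and 24.3% against 12.2% from 2000 bp. The shares by length were not weighted for abundance either. Among unspliced loci 22.4% of 67 were called, and among spliced ones 23.6% of 660.

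Among the called loci whose libraries separated, the 5 largest increases in green skin on log2(FPKM + 0.1) were Novel00063, Novel00208, Novel00027, Novel00475 and Novel00303. The order depends on the pseudocount and on the method, as 4 of these 5 were also among the 5 largest at a pseudocount of 0.01 or 1, and 2 under limma voom on recovered reads. Novel00063 (scaffold NW_008988053.1, 85498 to 86261, plus strand, 660 bp) had 17.9, 14 and 24 FPKM in green libraries and 0 in all 3 russet libraries. With 1317 reads against 0, it was at least 486-fold higher in green skin (adjusted p = 1.93e-05 by limma). The bound sets 3 reads over the 3 libraries of the line with none and covers counting error only. It takes reads as independent. Mates of a read pair may have been counted separately, so that all such lower bounds given here can be too high. Novel00475 (scaffold NW_008988405.1, 265099 to 265971, plus strand, 318 bp) had 2.64, 11.5 and 5.01 FPKM in green libraries, against 0, 0 and 0.0927 FPKM in russet libraries. B2 held more than the other green libraries in Novel00475 and in Novel00027, which had 2.14, 9.49 and 5.80 FPKM in green libraries and 0 in russet libraries. Both passed the test by limma, with adjusted p of 0.000878 and 0.000545.

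The 5 largest decreases in green skin on the same scale were Novel00646, Novel00300, Novel00039, Novel00444 and Novel00100. Here too 4 were shared at a pseudocount of 0.01 or 1, and 3 under limma voom. Novel00646 (scaffold NW_008988786.1, 201722 to 206818, minus strand, 1243 bp) had 0 FPKM in all 3 green libraries, against 13.9, 16.2 and 18.9 FPKM in russet libraries. With 0 reads against 2164, it was at least 654-fold lower in green skin (adjusted p = 1.77e-05). Novel00039 (scaffold NW_008988047.1, 604846 to 607997, plus strand, 2886 bp) had 0.144, 0.0705 and 0.0636 FPKM in green libraries, against 10.8, 11.1 and 15.0 FPKM in russet libraries, a log2 change of −6.02 ± 0.27 (SE). Novel00444 (scaffold NW_008988366.1, 363490 to 366113, minus strand, 1142 bp) had 0.148, 0 and 0 FPKM in green libraries, against 7.43, 7.67 and 10.5 FPKM in russet libraries. In each of these 3 loci all green values lay below all russet values, which the rule that chose them requires. The longest locus, Novel00648, did not pass the test (adjusted p = 0.829 by limma), with 5.09 ± 1.07 FPKM in green and 4.73 ± 0.47 FPKM in russet skin (SD, n = 3 each).

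Loci read in 1 line only were taken as those with at least 10 reads over the 3 libraries of 1 line and none in the other. There were 31 among the 734 assembled loci with at least 10 reads in all (4.22%), against 1.78% of all genes and loci with that many reads. Annotated genes stood at 538 of 31150 (1.73%), and at 1.77% when weighted to the same mix of total reads. Green skin held 17 of these loci (2.32%, against 0.831% of all) and russet skin 14 (1.91%, against 0.953%). From 100 to 300 reads, 15 of 218 assembled loci (6.88%) were read in 1 line only, against 1.91% of annotated genes, and from 3000 reads 0 of 81, against 0.0305%. With 100 reads or more in the line that had them, 13 loci of green and 8 of russet skin were left. The assembled loci were found from reads of these libraries, whereas the annotated genes came with the reference. The part of this in the shares read in 1 line only or called was not tested.

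The loci read in green skin only had 19 to 1317 reads, lengths of 226 to 2967 bp and lower bounds of 6.11- to 486-fold, with 51.2-fold at the median. After Novel00063, the most reads were on Novel00043 (732), Novel00133 (241), Novel00303 (175) and Novel00027 (170). Novel00043 was even among the green libraries, with 2.48, 2.29 and 2.46 FPKM, and at least 266-fold higher in green skin (adjusted p = 6.66e-05). In 16 of the 17 loci all 3 green libraries had reads. The loci were chosen for reads in 1 line, so that a passed test restates that choice. It was passed by 16 of the 17 (94.1%), against 53.2% of annotated genes read in green skin only. Those genes had fewer reads, with a median of 34.5 against 139. Novel00311, with 19 reads, did not pass the test (adjusted p = 0.328 by limma).

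The loci read in russet skin only had 21 to 2164 reads, lengths of 359 to 4931 bp and lower bounds of 6.04- to 654-fold, with 33.3-fold at the median. After Novel00646, the most reads were on Novel00100 (775), Novel00300 (723), Novel00147 (422) and Novel00338 (147). Novel00100 had 5.21, 6.12 and 6.40 FPKM in russet libraries, which is at least 234-fold lower in green skin (adjusted p = 2.72e-05). Novel00300 had 8.64, 10.1 and 9.36 FPKM in russet libraries, at least 219-fold lower in green skin (adjusted p = 1.93e-05). Novel00147 was uneven, with 4.42 and 8.08 FPKM in A1 and A2 but 0.0847 FPKM in A3. It did not pass the test (adjusted p = 0.076), but did so without A3 (0.00049) and with the library number as a block (0.0447), and over the alternatives with all libraries its adjusted p lay between 0.0268 and 0.366. Of these 14 loci, 12 had reads in all 3 russet libraries. The test was passed by 9 of the 14 (64.3%), against 44.1% of annotated genes read in russet skin only. Those genes had fewer reads, with a median of 27 against 110.5.

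**Figure D3:**
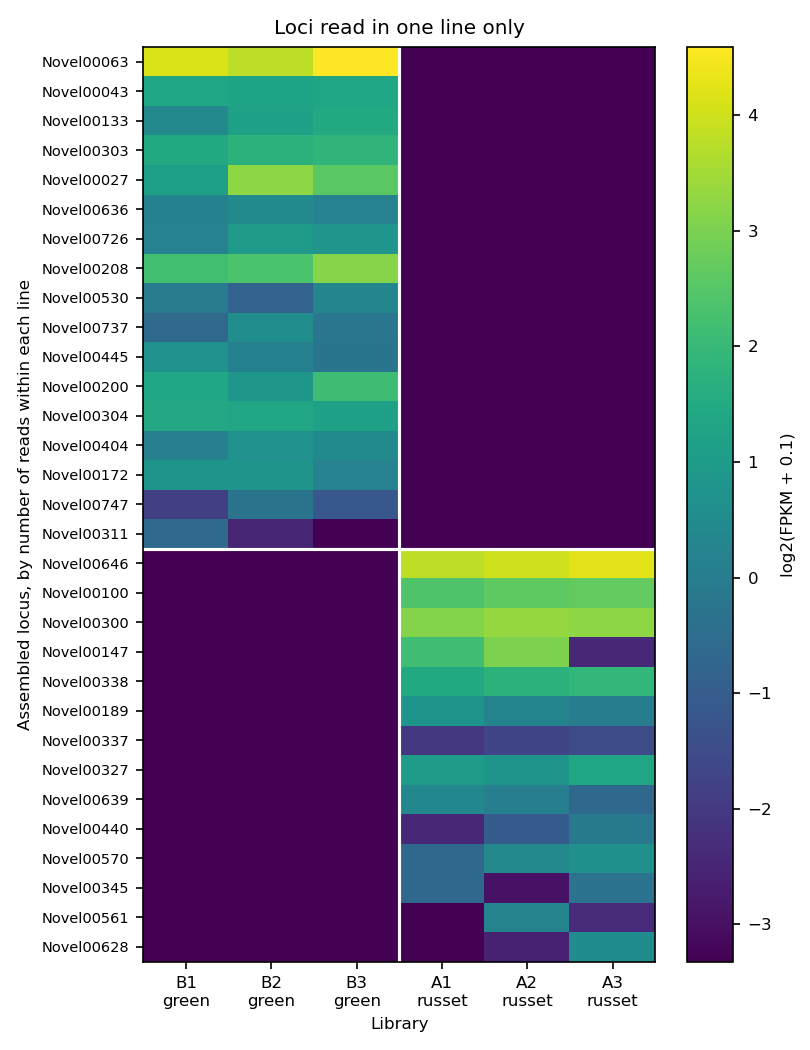
log2(FPKM + 0.1) of the 31 assembled loci read in 1 line only, with green libraries B1 to B3 left of russet libraries A1 to A3. The 17 loci of green skin stand above the white line and the 14 of russet skin below it, each set ordered by reads, and the darkest color is 0 FPKM. Novel00147 is dark in A3 and light in A1 and A2.

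Of the 31 loci, 23 had a nearest annotated gene that could be tested, and 9 of those genes were called, all in the direction of the locus. Of all 126 called assembled loci with a tested nearest gene, 43 had one that was called (34.1%), 37 of them in the same direction. Among all annotated genes tested, 15.1% were called. Of the genes nearest to the 31 loci, only 1 was itself read in 1 line only. Novel00303 (scaffold NW_008988189.1, 158936 to 159762, minus strand) had 2.70, 3.29 and 3.53 FPKM in green libraries and 0 in russet libraries. Its nearest gene 103957296, 4883 bp away with 5′ ends facing, had 7.38, 5.81 and 7.67 FPKM in green libraries and 0 in russet libraries. Novel00304, on the same scaffold (243102 to 245177), was read in green skin only as well, with 119 reads. In contrast, the gene nearest to Novel00100 averaged 49.9 FPKM in green and 50.6 FPKM in russet skin, and that nearest to Novel00027 averaged 30.2 FPKM in green and 28.6 FPKM in russet skin.

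The log2 change of each assembled locus was set against that of its nearest annotated gene. Over 536 loci with a tested neighbor, Pearson's r between both log2 changes was 0.29 at all gaps, against 0.23 over 22610 pairs of annotated neighbors. Within 1000 bp r was 0.46 for 92 loci on the strand of the gene and 0.11 for 78 loci on the other strand, against 0.38 and 0.18 for annotated neighbors that do not overlap. Over 1000 and up to 5000 bp the order was the other way, with 0.21 for 116 loci on the same and 0.38 for 130 on the other strand, and over all gaps the values were 0.29 and 0.3. For annotated neighbors over 1000 and up to 5000 bp apart, r was 0.21 on the same and 0.18 on the other strand. No difference between these correlations was tested. The pairs share libraries and depth, and some loci share a neighbor. Strands are as deposited and were not checked, also for unspliced loci, and the library kit is not stated to mark strand. Of 19 called loci within 1000 bp of a tested gene on the same strand, 10 had a neighbor that was called (52.6%), 9 of them in the same direction. Of 19 on the other strand, 2 had one (10.5%). Among loci not called within 1000 bp these shares were 15.1 and 15.3%. Among called annotated genes within 1000 bp of a neighbor that does not overlap, they were 34.9% on the same and 26.2% on the other strand. Over 1000 and up to 5000 bp they were 29.0% of 31 called assembled loci on the same and 36.4% of 33 on the other strand. For called annotated genes at that distance they were 29.5 and 25.2%. At all gaps, 43 of 126 called loci had a called neighbor (34.1%), 37 of them in the same direction, against 16.6% of loci that were not called. Among annotated pairs these shares were 28.2% and 11.8%. The background of genes and loci called is 15.3%.

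Novel00338 and gene 103959776 were the pair on the same strand within 1000 bp that fell furthest together. Novel00338 (scaffold NW_008988221.1, 6667 to 7137, minus strand, 380 bp) lies 315 bp beyond the 3′ end of the gene. It had 0 FPKM in all green libraries, against 2.71, 3.33 and 3.65 FPKM in russet libraries. The level in green skin was at least 44.4-fold lower (adjusted p = 5.85e-05). The gene had 0, 0 and 0.0150 FPKM in green libraries, against 3.97, 4.17 and 5.22 FPKM in russet libraries. Novel00404, 220 bp before the 5′ end of gene 103964557, rose with its gene. It had 0.992, 1.5 and 1.27 FPKM in green and 0 in russet libraries, and the gene averaged 2.90 FPKM in green and 0.00432 FPKM in russet skin. Novel00404 was singled out after its values were seen.

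Other loci changed apart from the gene beside them. Novel00200 (scaffold NW_008988117.1, 120346 to 120848, minus strand, 412 bp) had 2.56, 1.71 and 4.33 FPKM in green and 0 in russet libraries. Gene 103950987, 468 bp away on the same strand, had 53.5, 54.9 and 55.9 FPKM in green libraries, against 59.3, 60.3 and 71.7 FPKM in russet libraries (adjusted p = 0.278 by limma). Novel00327 had 0 FPKM in green libraries, against 1.94, 1.6 and 2.47 FPKM in russet libraries. The gene 415 bp from it, 103959094, averaged 1.30 FPKM in green and 1.04 FPKM in russet skin. Novel00133 had 1.21, 2.20 and 2.71 FPKM in green and 0 in russet libraries. Its neighbor 103947087 stood at 32.6 FPKM in A2 alone, against 1.54 to 5.91 FPKM in the other libraries. Novel00533, singled out after its values were seen, was the only pair within 1000 bp in which both were called in opposite directions. It averaged 1.48 FPKM in green and 3.58 FPKM in russet skin, and gene 103930230 beside it averaged 17.2 FPKM in green and 9.88 FPKM in russet skin.

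**Figure D4:**
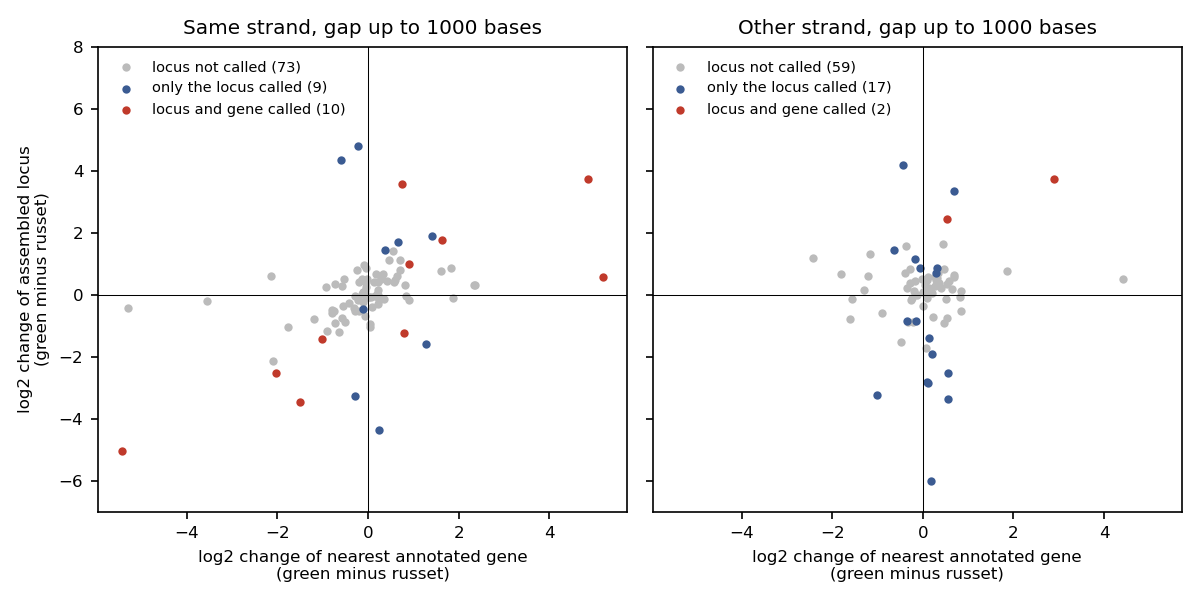
The log2 change (green minus russet) of assembled loci against that of the nearest annotated gene, for gaps of up to 1000 bp. The left panel shows 92 loci on the strand of the gene and the right panel 78 loci on the other strand, with strands as deposited. Red points are pairs in which both were called, blue points loci called without their gene and grey points loci not called, with 10 red points on the same strand and 2 on the other.

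A pathway or function was given for 20 assembled loci in the lists of changed genes that the study made from the same libraries. That 19 of them passed the test here is no independent evidence, as those lists were chosen on these samples. In green skin 13 were higher and 6 lower. The terms are known functions of like sequences, and no sequence was used here to check them. Their lengths ran between 226 and 2967 bp with a median of 892.5 bp.

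Novel00647, listed as beta-amyrin synthase-like, had the highest mean FPKM of these. Beta-amyrin synthase folds oxidosqualene into the triterpene skeleton beta-amyrin, and triterpenes are common in the surface layers of fruits. The locus (scaffold NW_008988788.1, 159674 to 162254, plus strand, 547 bp) had 2.98, 2.79 and 1.34 FPKM in green libraries, against 40.6, 26.4 and 25.5 FPKM in russet libraries. The lines lay far apart, with a log2 change of −3.69 ± 0.33 (SE, adjusted p = 0.000452). Its nearest gene 103936044, also listed as beta-amyrin synthase-like, lies 7226 bp away on the same strand. It had 1.78, 1.91 and 0.408 FPKM in green libraries, against 30.4, 27.6 and 19.3 FPKM in russet libraries (log2 change −4.35 ± 0.52, SE, adjusted p = 0.00173). Reads from stretches that such near copies share could be split between them. B3 was the lowest library in both.

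Besides Novel00647, another 2 loci had a nearest gene in the same pathway list. Novel00708 (regulation of autophagy, the breakdown of a cell's own parts in the vacuole) had 0.0683, 0 and 0 FPKM in green libraries, against 0.798, 0.767 and 1.40 FPKM in russet libraries. Gene 103939241, 2551 bp away, had 0 FPKM in all green libraries, against 1.85, 2.80 and 2.93 FPKM in russet libraries. Novel00440 (homologous recombination, a way of repairing DNA breaks) had 0 FPKM in green libraries, against 0.0870, 0.397 and 0.811 FPKM in russet libraries. It was the only one of the 20 not to pass the test, with adjusted p = 0.053, though it did with the library number as a block (0.0481) and without A1 (0.0119), and with all libraries its adjusted p lay between 0.0154 and 0.132. Its neighbor 103966909, 774 bp away, averaged 0.00360 FPKM in green and 0.368 FPKM in russet skin.

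The other loci with terms are given by term, in groups made after their values were seen. Ribosome was the term of Novel00034, Novel00194 and Novel00519, and ribosome biogenesis that of Novel00442 and Novel00762. The first 4 rose and Novel00762 fell. Novel00034 had 3.03, 2.93 and 3.07 FPKM in green libraries, against 0.584, 0.569 and 1.16 FPKM in russet libraries (log2 change 1.90 ± 0.30, SE, adjusted p = 0.00585). Novel00194 had 8.70, 13.7 and 10.9 FPKM in green libraries, against 3.20, 4.74 and 5.33 FPKM in russet libraries. Novel00519 lost its call without A1, B1, B2 or B3, where its adjusted p was 0.0703, 0.0839, 0.109 and 0.0702, against 0.0118 to 0.0465 with all libraries. Novel00442 lost it without B2 (0.0561), and Novel00762 lost it without A2 (0.0541).

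Novel00583 (proteasome, which degrades tagged proteins) had 7.07, 5.29 and 3.56 FPKM in green libraries, against 0.420, 0.278 and 0.255 FPKM in russet libraries (log2 change 3.66 ± 0.32, SE, adjusted p = 0.000408). Novel00771 (ubiquitin mediated proteolysis) had 2.37, 2.73 and 3.45 FPKM in green libraries, against 0.521, 0.998 and 1.64 FPKM in russet libraries. It just passed the test (adjusted p = 0.0485), and did not pass it without A1 (0.0851), A2 (0.111), B1 (0.0939), B2 (0.127) or B3 (0.134). With all libraries the adjusted p lay between 0.0173 and 0.0641. Novel00208, the shortest locus, carried the term aminoacyl-tRNA biosynthesis, i.e., the loading of tRNAs with amino acids. It had 4.46, 5.0 and 8.74 FPKM in green libraries and 0 in russet libraries, and was at least 54.2-fold higher in green skin (adjusted p = 6.3e-05). Novel00281 (RNA transport, spliceosome and mRNA surveillance) had 21.0, 19.1 and 28.3 FPKM in green libraries, against 7.39, 7.97 and 10.4 FPKM in russet libraries, and rose with its neighbor 103956565.

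Another 5 loci carried terms of metabolism. Novel00638 was listed under glycolysis and gluconeogenesis, pyruvate, carbon and purine metabolism, amino acid synthesis and secondary metabolites. It had 1.88, 2.68 and 3.23 FPKM in green libraries, against 0.353, 0.484 and 0.677 FPKM in russet libraries. Its log2 change was 2.16 ± 0.32 (SE, adjusted p = 0.00425 by limma). Novel00549 (phenylalanine, tyrosine and tryptophan, the aromatic amino acids, and secondary metabolites) had 2.13, 3.1 and 2.5 FPKM in green libraries, against 0.816, 0.864 and 0.964 FPKM in russet libraries. Novel00450 (linoleic acid metabolism, which feeds oxylipins) averaged 2.95 ± 0.74 FPKM in green and 1.00 ± 0.15 FPKM in russet skin (SD, n = 3 each). Novel00232 (nicotinate and nicotinamide, the route to NAD) had 43, 35 and 10 reads in green libraries, against 0, 0 and 1 in russet libraries, and Novel00043 (butanoate and alanine, aspartate and glutamate metabolism) was read in green skin only. In each of these 5 the green libraries lay above the russet ones. Novel00647, also listed under biosynthesis of secondary metabolites, went the other way. The directions are no result about metabolism, as the study had listed these loci as changed.

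The remaining 3 loci were lower in green skin. Novel00338, described above, and Novel00211 were listed under catalytic activity, and Novel00186 under ADP binding. Novel00583, which was higher in green skin, was listed under catalytic activity as well. Novel00211 had 0.0356, 0.168 and 0.0473 FPKM in green libraries, against 2.23, 1.36 and 2.13 FPKM in russet libraries (log2 change −3.49 ± 0.38, SE, adjusted p = 0.00112). Novel00186, the second longest of the 20 with 2680 bp, had 0.340, 0.633 and 0.702 FPKM in green libraries, against 1.81, 2.54 and 2.29 FPKM in russet libraries (log2 change −1.85 ± 0.31, SE, adjusted p = 0.00784).

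**Figure D5:**
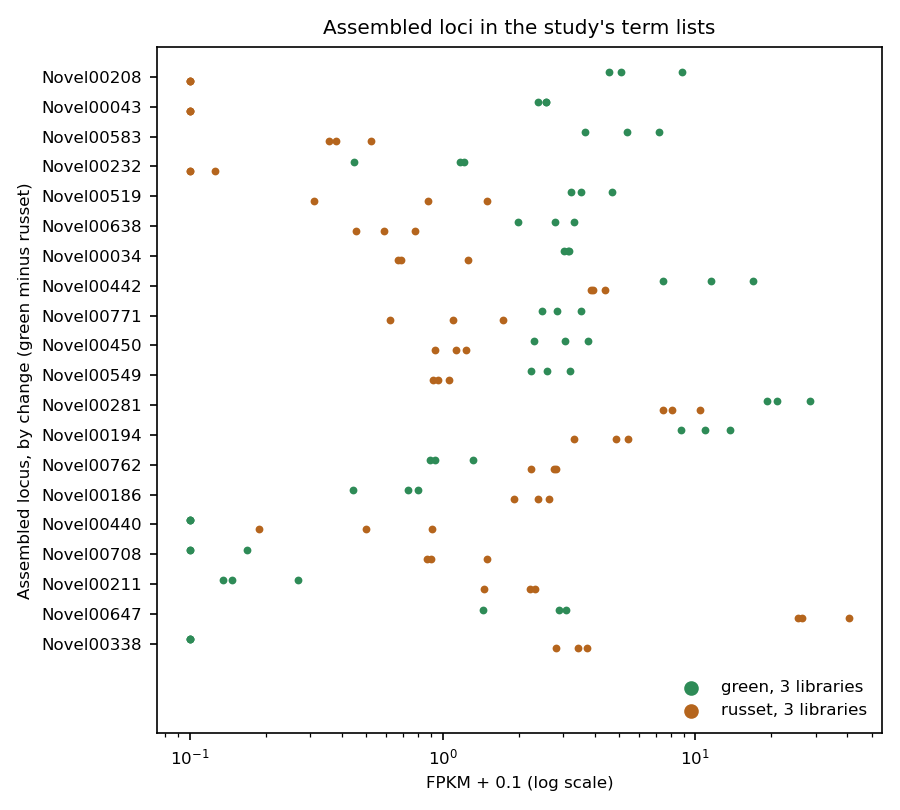
FPKM + 0.1 on a log axis of the 20 assembled loci with a term in the study's lists, ordered by change from highest in green (top) to highest in russet (bottom). Each green point is a green library and each brown point a russet library, and points at 0.1 are libraries with no read. No locus has overlapping lines, but the study had listed these loci as changed on the same libraries. Lines did not overlap in 42.2% of assembled loci and 33.1% of all genes and loci tested.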

How the data were processed

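RNA-Seq libraries of fruit skin, 3 of green ‘Suisho’ and 3 of russet ‘Niitaka’, were analysed. The authors aligned filtered paired reads with HISAT2 2.0.4 to the Chinese white pear genome, assembled transcripts with Cufflinks 2.1.1 and deposited FPKM values and positions per gene, and their notes name DESeq 1.18.0 for tests. No source used here gives the counting program or the assembly version. The deposited positions and lengths are in bases. Columns A and B were taken as russet and green from a legend in the study's supplement. Which green sample is which column is not given.

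Reads were recovered as whole multiples of FPKM and length (tolerance 0.0001). All values came out whole, but 264 assembled loci (34.2%) needed another length than the deposited one, at a median of 84.8% of it, against 8175 annotated genes (19.4%). Of the loci with another length, 6 had read numbers with a common divisor, so that smaller numbers are possible: Novel00085, Novel00105, Novel00144, Novel00187, Novel00270 and Novel00662. Intervals and bounds cover counting error only and take reads as independent, although mates of a read pair may have been counted separately.

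The test between lines was limma 3.58.1 (R 4.3.3, trend, two-sided) on log2(FPKM + 0.1) for a mean of at least 0.1 FPKM, with Benjamini-Hochberg adjustment over all 30161 genes and loci and a threshold of 0.05. Fold changes on this scale understate those of low loci. Steps were tested on simulated data, where this test made more false calls than the threshold aims for and limma voom did not. Those data had the same spread beyond counting error for all genes and few changed genes, so that error rates in these libraries are not known from them. Other steps used Python 3.11.15, numpy 2.4.6, pandas 2.3.3, scipy 1.17.1 and matplotlib 3.10.9. Deviations of libraries with the same column number correlated across all genes tested at 0.195, 0.211 and 0.323, against at most 0.0436 for other pairs of libraries. The pairing comes from these correlations alone, as the labels number the lines differently.

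Loci were named by a rule: the 5 most abundant, the 5 largest increases and decreases whose libraries separate, up to 5 per line with the most reads among those read in 1 line only, all in the study's term lists, the longest and shortest, the nearest genes, and the 3 that differ most from a gene within 1000 bp on the same strand. Members, markers and rules were chosen with earlier results of these data known. Sequences were not used here.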

Additional observations from a re-analysis of the deposited data

How the results depend on the processing

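The number of assembled loci called was 171 and lay between 118 (mean of at least 1 FPKM) and 178 (median-ratio scaling) over the alternatives without a block, with 143 under limma voom. Without 1 library it was 122 (without B2) to 141, 108 loci were called whichever library was left out, and no called locus changed direction in any alternative. With the library number as a replicate block 220 assembled loci were called (20% of all genes and loci), and among the named loci it changed the call of Novel00147 and Novel00440 only. The loci read in 1 line only numbered 32 to 36 without 1 library, 37 from 1 read and 21 from 100 reads. Leaving out loci that overlap another, an alternative chosen after seeing the data, left 168 called and 29 read in 1 line only.

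The share of annotated genes of like abundance called was 17.5%, 18.1% by reads and 18.5% by FPKM and length. Without 1 library it was 12.2 to 13.7%, against 16.9 to 19.4% of assembled loci. Assembled loci with an annotated gene on the same strand within 1000 bp numbered 123, and 22 at 200 bp, 368 at 5000 bp and 225 on either strand.

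Over 39 named loci, 548 of 580 alternative values kept direction and side of the threshold, 24 were no longer past it and 7 were newly past it. The only one to change sign was the log2 change of Novel00648, not called, which lay between −0.065 (without B3) and 0.23 (without B2) with 1 library left out. Among assembled loci with a read, the median was 387.5 reads over 6 libraries.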

Other observations

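Libraries with the same column number were set side by side in the 2 lines. Number 3 was the highest library of both lines in 173 of 727 tested loci (23.8%), against 26.5% of annotated genes, and number 1 in 61 (8.39%), against 11.9%. Number 1 was the lowest in both in 168 (23.1%), against 15.4%. Number 2 was the lowest in both in 90 (12.4%), against 19.1%. Novel00470 had 154, 96.8 and 29.7 FPKM in green libraries, against 106, 58.4 and 24.5 FPKM in russet libraries, with number 1 high and number 3 low in both lines. Novel00731 had 0.631, 0.0744 and 0.671 FPKM in green libraries, against 0.737, 0.0616 and 0.723 FPKM in russet libraries, with number 2 low in both lines. Novel00609 had 1.08, 1.30 and 5.57 FPKM in green libraries, against 0.530, 1.12 and 4.24 FPKM in russet libraries, with number 3 high in both. These loci were chosen after their values were seen, and no source used here says what the numbers stand for.

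Assembled loci also lay beside each other. Of the 772, 125 had another assembled locus within 5000 bp, and this number includes the 79 loci that overlap another. Among them 80 were tested and 13 passed (16.2%), against 23.5% of all assembled loci and 15.3% of all genes and loci tested. The overlapping loci, with a median of 13 reads, made up 34 of the tested loci and only 3 of those that passed. The lower share is therefore not that of separate neighbors alone. Of the 453 scaffolds that held any assembled locus, 278 held 1.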
